A study of Homo sapiens with 9 samples.

Results

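Oncofetal genes are transcribed strongly in fetal tissue, are mostly turned down after birth and are active again in many liver cancers. The levels of 10 such genes were followed in HepG2, a human liver cancer cell line, after knockdown of TRIB3. The genes were AFP, GPC3, H19, IGF2, IGF2BP1, IGF2BP2, IGF2BP3, DLK1, LIN28B and HMGA2, chosen by symbol among the 24204 gene symbols of the expression table. All 10 were listed, and 9 of them were among the 11265 genes tested, which reached 1 FPKM in 3 or more of the 9 libraries. FPKM is the number of sequenced fragments scaled to gene length and library size, and H19 was the gene below that level.

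The cells carried a lentivirus with a control short hairpin RNA (shCtrl), with the TRIB3 hairpin sh1 (shTRIB3-1) or with the TRIB3 hairpin sh2 (shTRIB3-2), and each group held 3 libraries. Infection lasted 48 h and was followed by 48 h of puromycin, which every group received. The line was kept in high-glucose medium with serum. The labels mention no withdrawal of glutamine, whereas the study's methods describe RNA from glutamine-deprived cells and a strand-specific library kit other than the one in the labels. The study also sequenced glutamine-deprived HepG2 cells in a separate experiment, and its text on the knockdown RNA names no deprivation. The methods do not separate these experiments, so the medium at harvest and the kit remain uncertain. Nothing states that the libraries of a group came from separate cultures, and the p-values therefore measure only the spread between these libraries, which may be technical. Depth was 34206726 to 36311029 fragments per library, recovered from the FPKM values. All 8 markers of HepG2 identity reached 1 FPKM, with albumin (ALB) at a mean of 5213 FPKM in shCtrl, and no endothelial marker did. Of the fibroblast and stellate markers only ACTA2 reached that level, and the leukocyte markers that did included LYZ and CD68, while PTPRC and CD3E lay at or near 0. In RNA from whole cultures, fewer cells with a transcript cannot be told apart from less transcript in each cell.

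The oncofetal proteins act at several levels. AFP is the main plasma protein of the fetus, GPC3 is a heparan sulfate proteoglycan of the cell surface, IGF2 is a fetal growth factor, and DLK1 is a membrane protein of hepatic progenitors. H19 is an imprinted long noncoding RNA that lies beside IGF2. IGF2BP1, IGF2BP2 and IGF2BP3 are related proteins that bind mRNAs, LIN28B blocks the maturation of let-7 microRNAs, and HMGA2 is a chromatin protein whose mRNA is a classical let-7 target. The let-7 microRNAs rise as tissues mature, and they recognise their targets through the seed at bases 2 to 8.

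That seed links several of the 10 genes by sequence. All 8 mature let-7 microRNAs of the RefSeq table (GRCh38.p14) carry the same seed, written in capitals in 2 of them.
let-7a-5p: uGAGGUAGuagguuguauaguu
let-7i-5p: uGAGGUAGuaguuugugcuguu

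The complement of the seed, CTACCTC, was searched on the sense strand of the 3′ UTR of the canonical GENCODE transcript. It was found 4 times in HMGA2, 4 times in LIN28B and 4 times in IGF2BP1, once each in IGF2BP2 and IGF2BP3, and not in AFP, GPC3, IGF2 or DLK1. Of 10505 tested genes with an annotated 3′ UTR, 10.7% held at least 1 copy and 10 genes (0.0952%) held 4 or more. The copy nearest the stop codon in each gene is shown with its flanks, and the capitals mark the match to the seed.
HMGA2, chr12:65963299-65963320, plus strand: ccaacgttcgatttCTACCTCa
LIN28B, chr6:105078813-105078834, plus strand: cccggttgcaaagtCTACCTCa
IGF2BP1, chr17:49051062-49051083, plus strand: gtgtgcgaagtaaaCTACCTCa
IGF2BP2, chr3:185644220-185644241, minus strand: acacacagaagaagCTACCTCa
IGF2BP3, chr7:23311795-23311816, minus strand: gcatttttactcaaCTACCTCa

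Both hairpins target the coding sequence of TRIB3 on chromosome 20, and their target sites are given because every difference below rests on these 2 reagents. Neither 21-base site had an exact match in a transcript of any oncofetal gene, and TRIB3 was the only gene with a match.
shTRIB3-1, chr20:388072-388092: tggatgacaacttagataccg
shTRIB3-2, chr20:391473-391493: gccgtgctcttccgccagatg

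TRIB3 itself measured 67.9, 65.8 and 66.6 FPKM in the shCtrl libraries, 34.1, 32.7 and 34.0 FPKM with shTRIB3-1 and 20.6, 20.7 and 20.4 FPKM with shTRIB3-2. The groups did not overlap. TRIB3 fell by 0.99 on the log2 scale with shTRIB3-1 and by 1.70 with shTRIB3-2 (limma, adjusted p = 5.30e-11 and 5.39e-13), and it was lower with shTRIB3-2 than with shTRIB3-1 by a log2 fold change of -0.71 (SE 0.03, adjusted p = 9.54e-09). The 2 hairpins thus gave knockdowns of different depth, and they were compared with the same 3 control libraries.

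In the control cells the oncofetal genes spanned a wide range. AFP had the highest mean level (195 FPKM), followed by IGF2 (133 FPKM), HMGA2 (45.0 FPKM), IGF2BP1 (32.6 FPKM), IGF2BP3 (22.4 FPKM), IGF2BP2 (21.6 FPKM), LIN28B (15.7 FPKM), GPC3 (11.2 FPKM), DLK1 (10.0 FPKM) and H19 (0.0569 FPKM). Neighbours in this order did not overlap between libraries except IGF2BP3 and IGF2BP2. With either TRIB3 hairpin HMGA2 moved from the third to the fifth place, below IGF2BP1 and IGF2BP3. DLK1 stood above GPC3 with both hairpins and below it in shCtrl. With shTRIB3-2 IGF2BP3 took the third place, ahead of IGF2BP1, without overlap between the libraries.

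**Figure D1:**
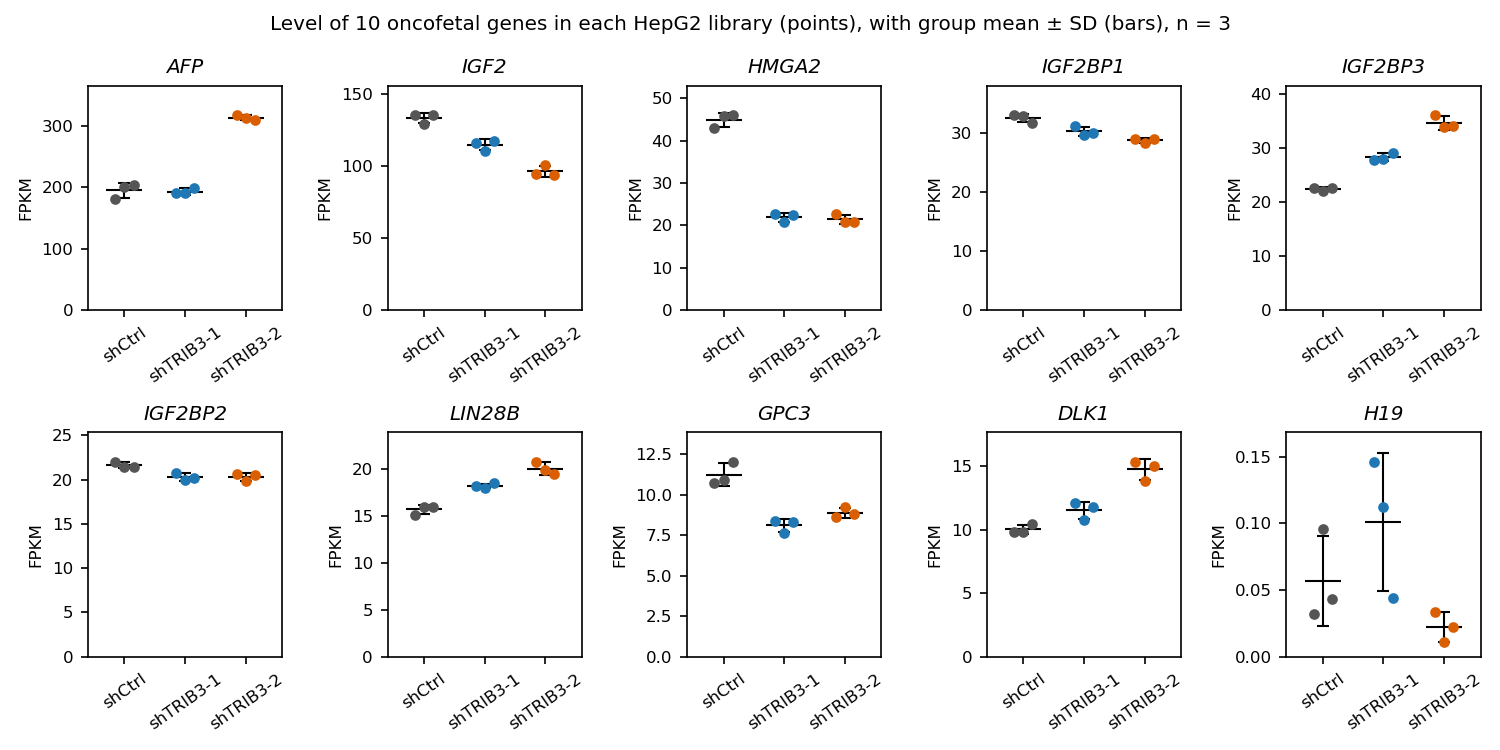
Level of each of the 10 genes in FPKM (vertical axis, from 0) in the 9 libraries; points are libraries, the horizontal bar is the group mean and the whiskers are ± 1 SD (n = 3). HMGA2 lies near 45.0 FPKM in shCtrl and near 21.9 and 21.5 FPKM with the hairpins, AFP stands apart with shTRIB3-2 only, and H19 is close to 0 in every library.

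The oncofetal genes did not move as a block. With shTRIB3-1, 8 of the 9 tested genes passed an adjusted p of 0.05 (limma, Benjamini-Hochberg over all tested genes), of which IGF2BP3, DLK1 and LIN28B rose and HMGA2, GPC3, IGF2, IGF2BP1 and IGF2BP2 fell. Over all tested genes 74.4% passed that threshold, 32.9% higher and 41.5% lower. With shTRIB3-2 all 9 passed, against 75.9% of all genes (35.4% higher and 40.5% lower), and AFP joined the genes that rose. Only HMGA2 also passed an absolute log2 fold change of 1, the size that defines a call here, in both comparisons, against 11.5% of all genes called with shTRIB3-1 and 12.3% with shTRIB3-2. The median log2 fold change of the 9 genes was -0.09 with either hairpin, beside -0.06 and -0.03 over all tested genes. Their median absolute change was 0.21 with shTRIB3-1 and 0.47 with shTRIB3-2, beside 0.32 and 0.34 over all tested genes.

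The hairpins differed from each other at 5 of the 9 genes, against 45.8% of all genes (25.1% higher and 20.7% lower with shTRIB3-2). Under TPM rescaling, median centring, quantile normalization or voom it was 6, with GPC3 added in the first and IGF2BP1 in the others. AFP, IGF2BP3, DLK1 and LIN28B were higher and IGF2 was lower with shTRIB3-2 than with shTRIB3-1. None of the 9 was called at the fold threshold in this direct test (limma), against 2.08% of all genes, and voom on recovered fragments called none either. An unadjusted p under 0.05 was found for 7 of the 9. The share of all tested genes at that unadjusted threshold was not computed, and the 45.8% belongs to the adjusted threshold. The 7 genes therefore cannot be read as an excess. The median log2 difference between the hairpins was 0.13 for the 9 genes and 0.03 for all tested genes. Libraries of the 2 groups did not overlap for 8 of the 9 genes with shTRIB3-1 against shCtrl, for 9 with shTRIB3-2 against shCtrl and for 7 between the hairpins, beside 77.2%, 77.4% and 54.5% of all tested genes.

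**Figure D2:**
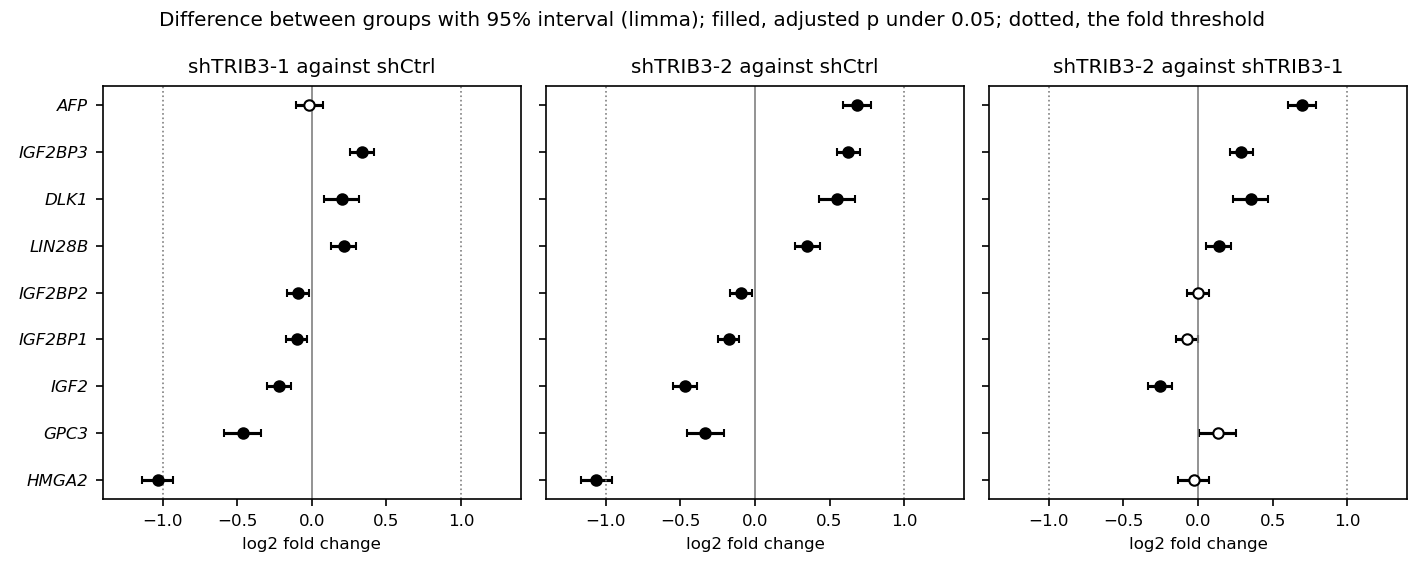
Log2 fold change (horizontal axis) of the 9 tested genes in the 3 comparisons, with the 95% interval from limma; filled points have an adjusted p under 0.05 and the dotted lines mark the fold threshold for a call. HMGA2 lies at -1.03 and -1.06 against shCtrl, and AFP lies near 0 with shTRIB3-1 and at 0.68 with shTRIB3-2.

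**Figure D3:**
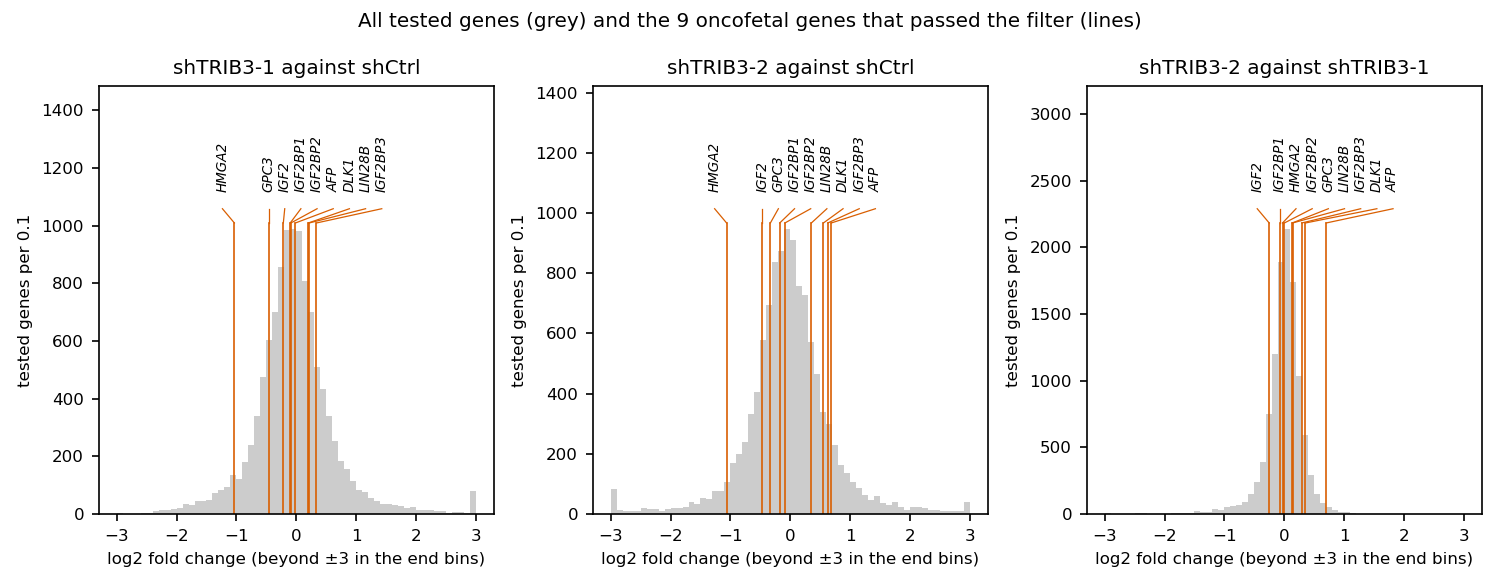
Number of tested genes (vertical axis, per bin of 0.1) by log2 fold change (horizontal axis) in each comparison, with the 9 oncofetal genes as lines. HMGA2 lies in the lower tail against shCtrl and AFP in the upper tail between the hairpins, while the other genes lie within the bulk of the distribution.

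HMGA2 showed the largest change of the 9 genes. HMGA2 (chr12:65824460-65966291, plus strand) binds AT-rich DNA and is transcribed in embryonic tissue. Its level was 43.1, 45.8 and 46.0 FPKM in shCtrl, 22.6, 20.7 and 22.4 FPKM with shTRIB3-1 and 22.7, 20.8 and 20.9 FPKM with shTRIB3-2. Every hairpin library lay far below every control library, and the hairpin groups overlapped. The log2 fold change was -1.03 (SE 0.05, 95% interval -1.14 to -0.93, limma adjusted p = 1.50e-09) with shTRIB3-1 and -1.06 (-1.17 to -0.96, adjusted p = 9.58e-10) with shTRIB3-2. About 5.6% of tested genes had a lower value in either comparison. Between the hairpins HMGA2 differed by -0.03 (95% interval -0.13 to 0.07, adjusted p = 0.634), although TRIB3 was lower with shTRIB3-2. The call with shTRIB3-1 lay close to the fold threshold. It was lost when the libraries were centred on their median (log2 fold change -0.95) and without shTRIB3-1 replicate 2 (-0.99), where the fall itself kept an adjusted p of 5.62e-09 and 1.08e-08.

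The leukocyte marker LYZ, which encodes lysozyme, fell in the same libraries. The 5 leukocyte markers summed to 1057 to 1178 FPKM in shCtrl, 534 to 561 FPKM with shTRIB3-1 and 613 to 652 FPKM with shTRIB3-2, of which LYZ made up most. CD68 also reached 1 FPKM, while the defining leukocyte markers PTPRC and CD3E did not exceed a group mean of 0.014 FPKM. HMGA1, the paralogue of HMGA2, followed another course, with 256 FPKM in shCtrl, 369 FPKM with shTRIB3-1 and 252 FPKM with shTRIB3-2. HMGA1 rose with shTRIB3-1 (log2 fold change 0.54, adjusted p = 1.57e-05) and its difference with shTRIB3-2 was -0.01 (adjusted p = 0.852). Per unit of HMGA1, HMGA2 was 0.178 ± 0.0242 (SD, n = 3) in shCtrl, 0.0594 ± 0.00286 with shTRIB3-1 and 0.0854 ± 0.00942 with shTRIB3-2.

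LIN28B, the inhibitor of let-7 processing, went the other way. LIN28B (chr6:104936616-105083332, plus strand) measured 15.2, 15.9 and 16.0 FPKM in shCtrl, 18.2, 18.0 and 18.5 FPKM with shTRIB3-1 and 20.8, 19.9 and 19.5 FPKM with shTRIB3-2. All 3 groups were apart, with the control libraries lowest. LIN28B rose by a log2 fold change of 0.21 (SE 0.04, limma adjusted p = 0.000279) with shTRIB3-1 and of 0.35 (SE 0.04, adjusted p = 3.59e-06) with shTRIB3-2. The step between the hairpins was 0.14 (adjusted p = 0.0117), and without shTRIB3-2 replicate 1 it was 0.11 with an adjusted p of 0.0554. Its paralogue LIN28A lay at or below a mean of 0.00696 FPKM in every group.

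HMGA2 and LIN28B, each with 4 copies of the let-7 seed match, thus moved in opposite directions. LIN28B per unit of HMGA2 was 0.352, 0.348 and 0.348 in shCtrl, 0.804, 0.870 and 0.824 with shTRIB3-1 and 0.917, 0.959 and 0.931 with shTRIB3-2. The ratios of the 3 groups did not overlap, and the exact two-sided permutation test gave p = 0.1 for each pair of groups, the smallest value that 3 against 3 libraries allows. Among the 10 tested genes with 4 or more copies, 4 rose and 5 fell with shTRIB3-1, and the same numbers held with shTRIB3-2. Over all tested genes 32.9% rose and 41.5% fell with shTRIB3-1, and 35.4% and 40.5% with shTRIB3-2. HMGA2, LIN28B and IGF2BP1 were 3 of the 10. The median log2 fold change was -0.05 for the 9379 genes without a copy, -0.06 for the 990 genes with 1 and -0.10 for the 136 genes with 2 or more with shTRIB3-1, and -0.04, -0.01 and -0.03 with shTRIB3-2. The let-7 microRNAs themselves were not measured in these libraries.

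Genes of the let-7 pathway other than the oncofetal genes held both directions, as did the whole set of tested genes. In that whole set 32.9% rose and 41.5% fell with shTRIB3-1, and 35.4% and 40.5% with shTRIB3-2. Of 12 tested genes, 6 rose, 3 fell and 3 did not pass with shTRIB3-1, and 5 rose, 4 fell and 3 did not pass with shTRIB3-2. Their median log2 fold change was 0.07 and 0.03. HIC2, NR6A1 and TRIM71, the last named only for this overlap, are also among the 10 genes with 4 or more copies. The counts of that group and of this list are therefore not separate. HIC2, a transcriptional repressor, rose from 3.95 ± 0.0941 FPKM (SD, n = 3) in shCtrl to 9.11 ± 0.052 with shTRIB3-1 and 8.55 ± 0.354 with shTRIB3-2. ARID3B, a DNA-binding protein, rose by 1.09 and 0.68 on the log2 scale, and NR6A1, a nuclear receptor of germ cells and embryos, rose by 0.77 and 0.76. TUT4 (also known as ZCCHC11), a uridyl transferase that acts with LIN28 proteins on let-7 precursors, fell by 0.67 and 0.48. TUT7, on the same list, rose by 0.19 and 0.26 (limma adjusted p = 0.0064 and 0.00076). Both were singled out after their values were seen.

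The IGF2BP family changed its make-up. IGF2BP3 (chr7:23310209-23470491, minus strand) measured 22.7, 22.0 and 22.6 FPKM in shCtrl, 27.9, 28.0 and 29.2 FPKM with shTRIB3-1 and 36.1, 33.9 and 34.0 FPKM with shTRIB3-2. The 3 groups were fully separated. IGF2BP3 rose by a log2 fold change of 0.34 (SE 0.04, limma adjusted p = 3.21e-06) with shTRIB3-1 and of 0.63 (SE 0.04, adjusted p = 9.33e-09) with shTRIB3-2, and the step of 0.29 between the hairpins passed too (adjusted p = 4.76e-05). By the annotation 17.8% of the exon bases of IGF2BP3 lie opposite exons of MALSU1, and whether these libraries were stranded and counted by strand is uncertain. MALSU1 fell from 10.1 FPKM in shCtrl to 6.96 and 6.99 FPKM with the hairpins (log2 fold change -0.53 and -0.52).

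IGF2BP1 (chr17:48997385-49056145, plus strand) moved less and downwards. It measured 33.0, 32.9 and 31.7 FPKM in shCtrl, 31.2, 29.8 and 30.0 FPKM with shTRIB3-1 and 29.1, 28.3 and 29.0 FPKM with shTRIB3-2. No hairpin library reached the lowest control library. Its log2 difference from shCtrl was -0.10 (limma adjusted p = 0.0134) with shTRIB3-1 and -0.18 (adjusted p = 0.000335) with shTRIB3-2, and -0.07 between the hairpins (95% interval -0.15 to -0.0036, adjusted p = 0.0808). Under median centring the first of these became -0.02 and no longer passed (adjusted p = 0.569), while the difference between the hairpins became -0.10 and passed (adjusted p = 0.0286). That difference also passed under quantile normalization and with voom (adjusted p = 0.0442 and 0.0483).

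IGF2BP2 showed the smallest change of the 9 genes with shTRIB3-2. It measured 22.0, 21.5 and 21.4 FPKM in shCtrl, 20.7, 19.9 and 20.2 FPKM with shTRIB3-1 and 20.6, 19.8 and 20.5 FPKM with shTRIB3-2. Both hairpin groups lay just below the controls and overlapped each other. On the log2 scale they lay at -0.09 with either hairpin (limma adjusted p = 0.0266 and 0.0266), and the difference between the hairpins was 0.00 (95% interval -0.07 to 0.07). These small differences depended on the scaling. Under median centring they were -0.01 and -0.04 and did not pass (adjusted p = 0.763 and 0.294), and they also failed without shCtrl replicate 1 or 2. Without shCtrl replicate 1 the adjusted p was 0.0781 and 0.0788, and without shCtrl replicate 2 it was 0.0509 and 0.0507. The value for shTRIB3-1 was 0.0819 and 0.0702 without its replicate 2 or 3, and that for shTRIB3-2 was 0.0832 without its replicate 2.

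IGF2BP2 (chr3:185643130-185825042, minus strand) was also the family member with a G-quadruplex motif in 1 of its 2 listed promoters. The motif was searched on both strands as at least 4 runs of at least 3 G joined by loops of 1 to 7 bases, since guanine quadruplexes are a subject of the study. It was present in 25% of 35116 RefSeq promoters, each 300 bases long. The promoter (chr3:185824993-185825292, GRCh38.p14) is shown with its overlapping matches, from position -52 to -9 counted from 0 at the transcription start, in capitals.
IGF2BP2: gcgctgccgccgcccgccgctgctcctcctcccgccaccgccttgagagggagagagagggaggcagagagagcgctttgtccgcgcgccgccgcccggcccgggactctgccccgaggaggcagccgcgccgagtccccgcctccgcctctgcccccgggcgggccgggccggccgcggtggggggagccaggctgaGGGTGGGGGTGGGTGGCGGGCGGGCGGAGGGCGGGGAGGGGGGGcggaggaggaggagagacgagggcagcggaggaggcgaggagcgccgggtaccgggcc
The listed promoter of IGF2BP3 held no such match. Of the 7 listed promoters of the oncofetal genes only 1, the promoter shown, held the motif. A link between motif and transcript level was not tested. IGF2BP1 had no entry in that table.

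As a share of the summed FPKM of the family, IGF2BP3 was 29.3% ± 0.551 (SD, n = 3) in shCtrl, 35.9% ± 0.919 with shTRIB3-1 and 41.4% ± 0.671 with shTRIB3-2. IGF2BP1 was the largest of the 3 in shCtrl with 42.5% ± 0.610, and its share was 38.4% ± 0.623 and 34.4% ± 0.429 with the hairpins. IGF2BP2 held 28.2% ± 0.114, 25.7% ± 0.297 and 24.2% ± 0.255. None of these shares overlapped between groups (exact permutation p = 0.1 for each, the smallest possible). The shares are parts of 1 sum, so a rise of IGF2BP3 lowers the others, and they are not separate results. The level of IGF2BP2 itself was 20.3 FPKM with either hairpin (log2 difference 0.00, limma adjusted p = 0.991). The summed level was 76.6 ± 1.04 FPKM in shCtrl, 78.9 ± 1.10 FPKM with shTRIB3-1 (exact permutation p = 0.2) and 83.7 ± 1.88 FPKM with shTRIB3-2 (p = 0.1).

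**Figure D4:**
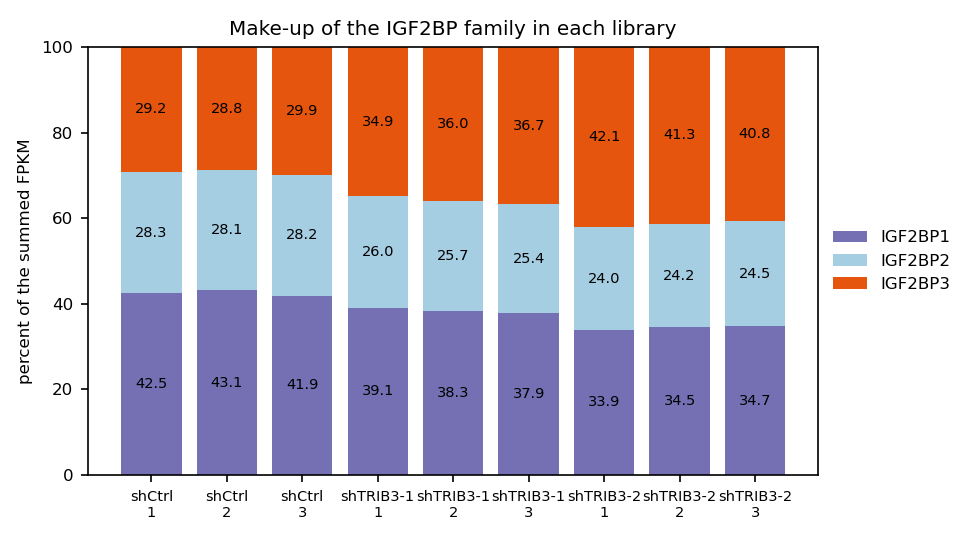
Share of each gene in the summed FPKM of IGF2BP1, IGF2BP2 and IGF2BP3 (vertical axis, percent) in each of the 9 libraries (horizontal axis). The IGF2BP3 share lies between 28.8% and 29.9% in shCtrl and between 40.8% and 42.1% with shTRIB3-2.

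IGF2, the ligand after whose mRNA the family is named, fell with both hairpins. IGF2 (chr11:2129112-2158391, minus strand) measured 135, 129 and 135 FPKM in shCtrl, 116, 110.4 and 118 FPKM with shTRIB3-1 and 94.2, 101 and 94.1 FPKM with shTRIB3-2. The 3 groups were ordered without overlap. The log2 fold change was -0.22 (SE 0.04, limma adjusted p = 0.000184) with shTRIB3-1 and -0.47 (SE 0.04, adjusted p = 1.77e-07) with shTRIB3-2, and -0.25 between the hairpins (adjusted p = 0.000172). Reads of IGF2 are not fully its own. Of its exon bases, 43.2% are shared on the same strand with INS-IGF2 and 2 further gene models, and 4.66% lie opposite IGF2-AS, which had 15 to 35 fragments in the shCtrl libraries and 1 to 7 with the hairpins.

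H19 (chr11:1995166-2004552, minus strand) had few assigned fragments in every library. The annotation release and strand option behind the counts are not given. Low transcription therefore cannot be told apart from fragments that were not assigned to H19. It had 3, 9 and 4 fragments in the shCtrl libraries, 13, 10 and 4 with shTRIB3-1 and 3, 1 and 2 with shTRIB3-2. The shTRIB3-2 libraries lay at or under the floor of 3 fragments per library, so no fold is given. In the fit without a filter on level the adjusted p was 0.260 and 0.270 against shCtrl and 0.0548 between the hairpins (unadjusted p = 0.0119 in limma). No comparison passed, and the 2 hairpin groups did not overlap.

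Receptors and binding proteins of IGF2 held both directions. Of 8 tested genes of the IGF axis, 2 rose, 4 fell and 2 did not pass with shTRIB3-1, and the numbers were the same with shTRIB3-2. The median log2 fold change was -0.11 and -0.14. Over all tested genes 32.9% rose and 41.5% fell with shTRIB3-1, and 35.4% and 40.5% with shTRIB3-2. IGFBP6, a binding protein that prefers IGF2, rose from 2.50 ± 0.741 FPKM (SD, n = 3) in shCtrl to 13.2 ± 0.482 with shTRIB3-1 and 11.9 ± 0.262 with shTRIB3-2. This was 2.40 and 2.25 on the log2 scale (limma, adjusted p = 4.74e-08 and 7.33e-08). IGFBP1, a hepatic binding protein, fell from 365 ± 31.6 FPKM to 163 ± 4.39 and 256 ± 2.06 FPKM. STC2, a secreted inhibitor of the protease that frees IGFs, fell by 0.19 and 0.88 on the log2 scale. The receptors were singled out after their values were seen. IGF2R, which clears IGF2 from the cell surface, rose from 50.6 FPKM to 74.1 and 72.7 FPKM (log2 fold change 0.55 and 0.52, adjusted p = 7.00e-09 and 9.33e-09). IGF1R, the signalling receptor, fell by 0.17 and 0.22, and IGF1 itself was at most 0.0265 FPKM in any group mean.

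IGF2, H19 and DLK1 are imprinted, that is, read from 1 parental copy. Among 11 other tested imprinted genes, 6 rose, 3 fell and 2 did not pass with shTRIB3-1, and 7 rose, 2 fell and 2 did not pass with shTRIB3-2. The median log2 fold change was 0.19 and 0.44. Over all tested genes 32.9% rose and 41.5% fell with shTRIB3-1, and 35.4% and 40.5% with shTRIB3-2. PEG3, a zinc finger protein, fell from 90.6 ± 4.36 FPKM (SD, n = 3) to 28.1 ± 1.82 and 31.8 ± 0.431 FPKM. PHLDA2, a placental growth regulator on chromosome 11 like IGF2, rose from 8.78 ± 0.709 FPKM to 27.4 ± 0.259 and 21.5 ± 0.623 FPKM. NAP1L5 rose from 0.473 ± 0.113 FPKM to 1.70 ± 0.0503 and 1.22 ± 0.161 FPKM. NAP1L5 passed the filter only through the hairpin groups, where it was higher. MEG3, the noncoding RNA of the DLK1 locus, had a mean of 0 FPKM in shCtrl and at most 0.00183 FPKM in a hairpin group.

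DLK1 rose with both hairpins, more with shTRIB3-2. DLK1 (chr14:100725705-100738224, plus strand) is a non-canonical Notch ligand and marks hepatoblasts. Its level was 9.85, 9.79 and 10.4 FPKM in shCtrl, 12.1, 10.8 and 11.8 FPKM with shTRIB3-1 and 15.4, 13.9 and 15.1 FPKM with shTRIB3-2. The 3 groups did not overlap, although the lowest shTRIB3-1 library came close to the highest control. It rose by 0.20 (SE 0.05, limma adjusted p = 0.00547) and 0.55 (SE 0.05, adjusted p = 1.51e-06) on the log2 scale, and the difference between the hairpins was 0.35 (adjusted p = 0.000271). DLK2, its paralogue, rose from 0.394 ± 0.0676 FPKM to 1.05 ± 0.0951 and 1.08 ± 0.0915 FPKM (n = 3). DLK2 lay below 1 FPKM in shCtrl and passed the filter only through the hairpin groups, where it was higher. Of 5 tested genes of the Notch system other than DLK1, 2 rose, 1 fell and 2 did not pass with shTRIB3-1, and 2 rose, 2 fell and 1 did not pass with shTRIB3-2. Over all tested genes 32.9% rose and 41.5% fell with shTRIB3-1, and 35.4% and 40.5% with shTRIB3-2. The receptor NOTCH2 rose by 0.54 and 0.69 on the log2 scale. HEY1, a transcription factor induced by Notch, fell by 0.32 and 0.44 (adjusted p = 0.0488 and 0.0107).

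AFP rose with shTRIB3-2 and did not pass the test with shTRIB3-1. AFP (chr4:73431138-73456174, plus strand) is the serum marker of liver cancer and lies beside ALB in a cluster of related genes. Its level was 181, 201 and 204 FPKM in shCtrl, 190, 190 and 199 FPKM with shTRIB3-1 and 317, 313 and 309 FPKM with shTRIB3-2. The shTRIB3-1 libraries lay within the range of the controls, and every shTRIB3-2 library lay above both other groups. The log2 fold change was -0.02 (95% interval -0.11 to 0.08, limma adjusted p = 0.754) with shTRIB3-1 and 0.68 (0.59 to 0.78, adjusted p = 2.09e-08) with shTRIB3-2. The direct difference between the hairpins was 0.70 (SE 0.04, adjusted p = 1.66e-07), and 98.8% of tested genes had a lower value in that comparison. By mean level AFP stood at rank 226 in shCtrl, 234 with shTRIB3-1 and 130 with shTRIB3-2 among the tested genes and H19.

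The promoter of AFP in the RefSeq table (chr4:73435971-73436270, plus strand, GRCh38.p14) is shown because AFP had the largest difference between the hairpins among the 9 genes. The capitals mark TATAAA at positions -29 to -24 and CCAAT, found on the minus strand at -125 to -121 and on the plus strand at 18 to 22.
AFP: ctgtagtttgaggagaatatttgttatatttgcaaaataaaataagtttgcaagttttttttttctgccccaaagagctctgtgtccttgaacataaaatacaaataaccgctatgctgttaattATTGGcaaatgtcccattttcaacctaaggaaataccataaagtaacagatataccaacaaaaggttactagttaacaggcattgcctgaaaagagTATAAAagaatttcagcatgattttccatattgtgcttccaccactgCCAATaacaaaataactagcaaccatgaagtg
On either strand, TATAAA was present in 11.5% and CCAAT in 34.6% of all promoters in that table. Searches for TGANTCA (AP-1, 7.71% of promoters), TGATGNAA (amino acid response element, 3.62%) and the G-quadruplex motif gave no match in the AFP window.

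Albumin, the adult counterpart of AFP, rose with shTRIB3-2 as well. ALB was 5213 ± 249 FPKM (SD, n = 3) in shCtrl, 5073 ± 177 FPKM with shTRIB3-1 and 6645 ± 66.1 FPKM with shTRIB3-2, a log2 fold change of -0.04 (limma adjusted p = 0.506) and 0.35 (adjusted p = 4.87e-05). AFP as a percentage of ALB was 3.75% ± 0.0878 in shCtrl, 3.81% ± 0.0292 with shTRIB3-1 and 4.71% ± 0.0628 with shTRIB3-2. The last group lay above the others (exact permutation p = 0.1, the smallest possible, against each), whereas shTRIB3-1 and shCtrl overlapped (p = 0.4). The 8 markers of HepG2 identity summed to 8244 to 8871 FPKM in shCtrl, 8490 to 8918 FPKM with shTRIB3-1 and 10590 to 10900 FPKM with shTRIB3-2. Between the hairpins 7 of these 8 were higher with shTRIB3-2 and none was lower, against 25.1% higher and 20.7% lower of all tested genes. The part of these markers in the difference of AFP was not tested.

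Among 13 tested genes of the albumin cluster and of known AFP regulators, 1 rose, 8 fell and 4 did not pass with shTRIB3-1, and 3 rose, 7 fell and 3 did not pass with shTRIB3-2. The median log2 fold change was -0.23 and -0.16. Over all tested genes 32.9% rose and 41.5% fell with shTRIB3-1, and 35.4% and 40.5% with shTRIB3-2. ZHX2, a postnatal repressor of AFP, fell from 7.13 ± 0.184 FPKM (SD, n = 3) to 3.44 ± 0.129 and 3.24 ± 0.0195 FPKM, a similar size with both hairpins (log2 difference between them -0.08, SE 0.05, limma adjusted p = 0.233). ONECUT1, a homeobox factor of the developing liver, fell by 1.08 and 1.03 on the log2 scale. ZBTB20, another repressor of AFP, was singled out after its values were seen, and it rose from 2.21 FPKM to 4.42 and 3.69 FPKM (adjusted p = 2.80e-08 and 3.99e-07).

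GPC3 fell with both hairpins, and GPC1 then stood above it. GPC3 (chrX:133535745-133987100, minus strand) measured 10.7, 10.9 and 12.1 FPKM in shCtrl, 8.39, 7.65 and 8.32 FPKM with shTRIB3-1 and 8.61, 9.25 and 8.82 FPKM with shTRIB3-2. Every hairpin library lay below the lowest control library. The log2 fold change was -0.46 (SE 0.06, limma adjusted p = 1.07e-05) with shTRIB3-1 and -0.33 (SE 0.06, adjusted p = 0.000171) with shTRIB3-2, and 0.13 between the hairpins (95% interval 0.0071 to 0.25, adjusted p = 0.079, and 0.0394 after TPM rescaling). GPC1, a glypican of most tissues, rose from 8.41 ± 0.173 FPKM (SD, n = 3) to 12.5 ± 0.531 and 14.7 ± 0.527 FPKM. The share of GPC3 in the summed FPKM of the glypicans was 46.1% ± 1.29 in shCtrl, 33.1% ± 1.00 with shTRIB3-1 and 32.3% ± 1.66 with shTRIB3-2 (exact permutation p = 0.1 against shCtrl for each). Of 7 tested glypicans and heparan sulfate enzymes, 3 rose and 4 fell with shTRIB3-1, and 4 rose and 3 fell with shTRIB3-2. The median log2 fold change was -0.17 and 0.25. Over all tested genes 32.9% rose and 41.5% fell with shTRIB3-1, and 35.4% and 40.5% with shTRIB3-2. The sulfotransferase NDST1 rose by 0.68 and 0.90 on the log2 scale, and the sulfotransferase HS6ST1 fell by 0.79 and 0.65.

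Fetal and progenitor genes outside the 10 were measured for comparison. Over all tested genes 32.9% rose and 41.5% fell with shTRIB3-1, and 35.4% and 40.5% with shTRIB3-2. Of 16 tested genes of the fetal and progenitor list, 8 rose, 5 fell and 3 did not pass with shTRIB3-1. With shTRIB3-2, 10 rose, 3 fell and 3 did not pass, and the median log2 fold change was 0.26 and 0.34. CD24, a surface protein of progenitor cells, rose from 1.26 ± 0.109 FPKM (SD, n = 3) to 6.36 ± 0.727 and 5.72 ± 0.282 FPKM. TERT, the catalytic subunit of telomerase, fell from 1.03 ± 0.0384 FPKM to 0.221 ± 0.0355 and 0.131 ± 0.0197 FPKM. SPINK1, a secreted protease inhibitor, rose from 0.505 ± 0.0815 FPKM to 3.50 ± 0.347 and 1.60 ± 0.488 FPKM. TERT passed the filter only through shCtrl, and SPINK1 only through the hairpin groups, where each was higher. Mature hepatocyte genes also held both directions. Of 13 tested, 4 rose, 8 fell and 1 did not pass with shTRIB3-1, and 6 rose, 4 fell and 3 did not pass with shTRIB3-2, with a median log2 fold change of -0.31 and -0.04. The gluconeogenic enzyme PCK1 rose by 3.52 and 2.49 on the log2 scale and the plasma carrier TTR by 1.08 and 1.71, while the fibrinogen chain FGB fell by 0.92 and 0.47.

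**Figure D5:**
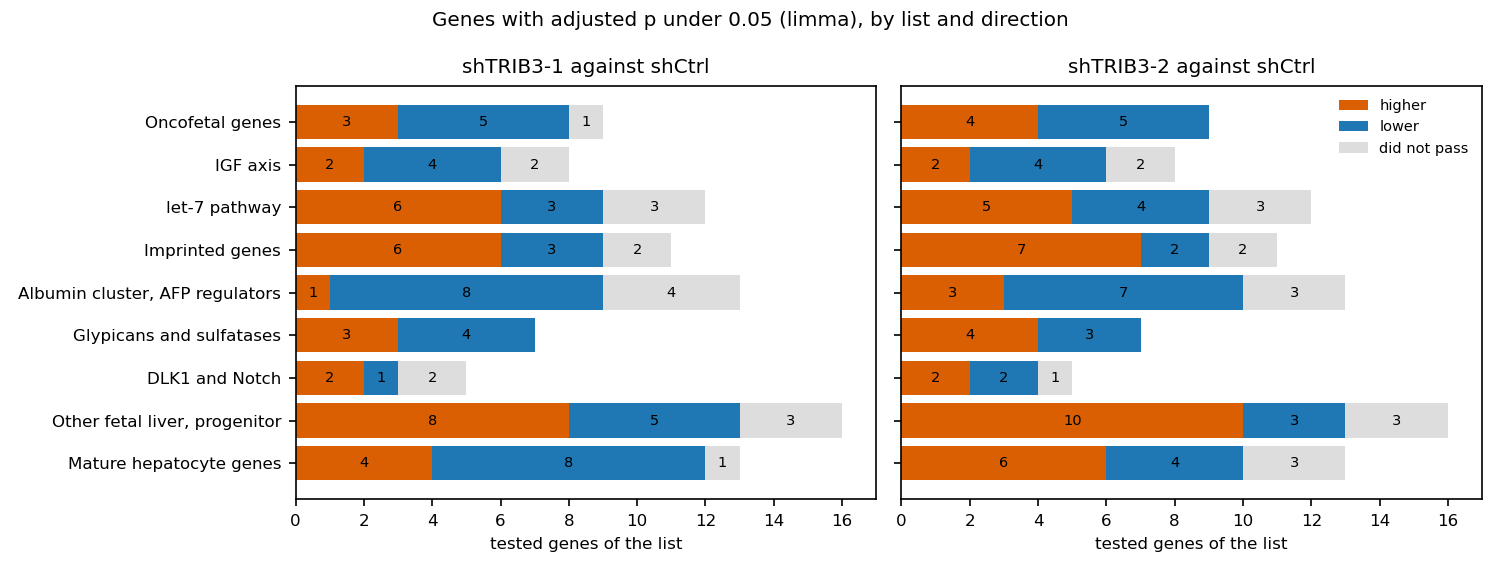
Number of tested genes (horizontal axis) of each list that were higher (orange), lower (blue) or did not pass (grey) an adjusted p of 0.05 with each hairpin against shCtrl. Both directions appear in every list, and among the oncofetal genes 3 were higher and 5 lower with shTRIB3-1 and 4 higher and 5 lower with shTRIB3-2. Over all tested genes 32.9% were higher and 41.5% lower with shTRIB3-1, and 35.4% and 40.5% with shTRIB3-2.

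The genes most like each oncofetal gene across the 9 libraries were found by Pearson's r of log2(FPKM + 0.1), as a description, since the 9 points share 3 groups. HMGA2 was matched most closely by CFI, a complement inhibitor (r = 0.999), and the heparan sulfate proteoglycan SDC2 (r = 0.998), and 1297 genes had an r above 0.95 with it. CFI was 116 FPKM in shCtrl and 61.6 and 61.2 FPKM with the hairpins. IGF2BP3 was matched by USP12 and RHOU (r = 0.997 and 0.996), LIN28B by SPATA2L and APOE (0.997 and 0.991) and DLK1 by CARD10 and MEP1A (0.996 and 0.991). AFP had 107 genes above 0.95, led by AGR2 and RALGAPA1 (r = 0.993 and 0.992), and AGR2 was 9.32 and 9.55 FPKM in shCtrl and shTRIB3-1 against 22.7 FPKM with shTRIB3-2. IGF2 was matched by PHB2 and UBL7-DT (0.996 and 0.990), GPC3 by TBX2-AS1 and TOX3 (0.991 and 0.984), IGF2BP1 by RREB1 and NCBP2 (0.988 and 0.985) and IGF2BP2 by SMARCC2 and PLA2G6 (0.985 and 0.978). IGF2BP2 had the fewest such genes, 48 above 0.95.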

How the data were processed

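RNA was sequenced from 9 HepG2 libraries, grouped by their labels into shCtrl, shTRIB3-1 and shTRIB3-2 (n = 3 each). The authors deposited FPKM values, 1 column per library. By the study's methods, reads were aligned with STAR and tested by the authors with DESeq2, and the submitters' processing notes name GRCh38, HTSeq and R 3.2.0. The methods name a strand-specific kit and the labels another kit. The annotation release and the strand option in counting are not given in the sources used here. FPKM corrects for depth and gene length but not for composition, so a few abundant genes can shift all others.

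Genes with FPKM of at least 1 in at least 3 libraries were tested on log2(FPKM + 0.1) with limma 3.58.1 in R 4.3.3 (3 group means, all 9 libraries, moderated with a mean-variance trend, two-sided, Benjamini-Hochberg over 11265 genes). Fold changes are on that scale and understate those of low genes. A call needed an adjusted p under 0.05 and an absolute log2 fold change above 1. The fit was tested on simulated data. For each gene the smallest length was taken that made all its values above 0 whole fragments (within 0.02 of a whole number). Such a length was found for every gene with a value above 0. That 100% of 172769 values were whole follows from this choice. Without molecular identifiers, counting error is a lower limit. Replicates differed by more than sampling noise (chi-square per degree of freedom 3.13 to 7.54), so none was a duplicate.

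Named were the 10 genes, TRIB3, the 3 genes of each list with the largest absolute mean change over both hairpins, and for each oncofetal gene the 2 genes with the highest correlation. Paralogues, neighbouring or overlapping genes, the ligand IGF1 and cell markers are named beside them, and other genes named outside this rule are identified as such. Some genes that the rule or the lists hold are not reported here. The members and lists were chosen with earlier results of these data known, so lists are given by counts and medians, with no test. The list counts include genes that passed the filter only through the groups where they were high. Alternatives were another pseudocount, other filters, TPM rescaling, median centring, quantile normalization, voom on recovered fragments, a replicate block and leaving out each library. Gene positions come from the GENCODE annotation of GRCh38, and microRNA and promoter sequences from RefSeq, which listed promoters for 5 of the 10 genes.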

Additional observations from a re-analysis of the deposited data

Results flagged for a closer look

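The effect of the 2 hairpins against shCtrl differed for 5 of the 9 tested oncofetal genes by the direct test between hairpins (limma, Benjamini-Hochberg over all tested genes), in a comparison in which 45.8% of all genes passed. The log2 difference of shTRIB3-2 against shTRIB3-1 was 0.70 for AFP, 0.35 for DLK1, 0.29 for IGF2BP3, 0.14 for LIN28B and -0.25 for IGF2. All 3 shTRIB3-2 libraries lay beyond all 3 shTRIB3-1 libraries for each of these genes. For DLK1, IGF2BP3, LIN28B and IGF2 the shTRIB3-1 libraries lay between shCtrl and shTRIB3-2, as did those of TRIB3, and for AFP they overlapped shCtrl. HMGA2 differed by -0.03 (95% interval -0.13 to 0.07). Depth of knockdown and hairpin sequence cannot be told apart here, because each depth was reached with 1 hairpin. Groups of 3 libraries were not examined for single outlying values.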

How the results depend on the processing

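Each comparison of the 9 genes was repeated under 17 alternatives, which gave 153 values per comparison. The fold change cannot move under another filter, the replicate block or the loss of a library outside the comparison. In those alternatives direction is kept by construction, and only the adjusted p can change. Direction and side of the adjusted p threshold were kept in 143 values for shTRIB3-1 and 149 for shTRIB3-2 against shCtrl, and in 141 between the hairpins. The exceptions concerned small differences. AFP with shTRIB3-1 turned to 0.064 under median centring, to 0.0049 without shCtrl replicate 2 and to 0.018 without shCtrl replicate 3, and ranged from -0.069 to 0.018 when single libraries were left out. IGF2BP2 between the hairpins turned to -0.03 under median centring (-0.028) and quantile normalization (-0.025), and to -0.012, -0.0037, -0.0098 and -0.0058 without shTRIB3-1 replicate 2, shTRIB3-1 replicate 3, shTRIB3-2 replicate 1 and shTRIB3-2 replicate 3, within a range of -0.012 to 0.017 over left-out libraries. Between the hairpins, GPC3 passed after TPM rescaling (0.16), and IGF2BP1 passed under median centring, quantile normalization and voom (-0.10, -0.09 and -0.08). HMGA2 between the hairpins was 0.00063 after TPM rescaling. The number of the 9 genes called with shTRIB3-1 ranged from 0 to 1 when single libraries were left out and was 0 under median centring. The cause of these changes was not tested.

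Over all tested genes the number called with shTRIB3-1 was 1294, and 780 with a pseudocount of 1, 1999 without a filter and 745 at an FPKM of at least 5. With shTRIB3-2 it was 1389, and 888 and 801 with that pseudocount and the stricter filter. Between the hairpins it was 234, and 84, 417 and 126. These alternatives shrink low values or change how many genes are tested. Centring on the median changed the split of calls with shTRIB3-1 from 607 higher and 687 lower to 687 and 576, and moved the median of all genes from -0.06 to 0.02.

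Libraries with the same replicate number were at most weakly related. Same-numbered libraries had a correlation of deviations of -0.07 to 0.09, and 3 of 9 libraries correlated best with their own number in both other groups. Same-numbered pairs were the highest for shCtrl with shTRIB3-1 (0.023 to 0.039) and for shTRIB3-1 with shTRIB3-2 (0.028 to 0.093). For shCtrl with shTRIB3-2 they were not (-0.074 to 0.0042). A replicate block left 8, 9 and 5 of the 9 genes passing in the 3 comparisons and 1295, 1389 and 234 genes called. Only H19 lay below the level filter. For the other 9 genes the precision rests on the spread within groups, pooled over all 9 libraries and moderated across genes. The fit assumes the same spread in each group, and that spread includes counting error. Counting error weighs most for GPC3, with 666 to 1097 fragments per library.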
